A study of Drosophila melanogaster with 72 samples.

Results

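The genes followed here encode the larval serum proteins and fat body proteins of Drosophila melanogaster: Lsp1alpha, Lsp1beta, Lsp1gamma, Lsp2, Fbp1 and Fbp2. They were chosen by name, through their FlyBase symbols, and make up 6 of the 23932 features listed in the deposited count tables. All 6 were found in each of the 3 tables, which hold the 72 libraries of the study.

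The larval serum proteins are hexamerins, storage proteins of the hemocyanin superfamily. The larval fat body makes them late in larval life and secretes them into the hemolymph, where they become the most abundant proteins. Before pupation they are taken back into the fat body and kept in granules, as a store of amino acids for building the adult. LSP1 is assembled from the alpha, beta and gamma subunits, and LSP2 forms a hexamer of its own. Fbp1 encodes the receptor through which the fat body takes LSP1 back up, and its transcription is induced by ecdysone. Fbp2 encodes a fat body protein related in sequence to alcohol dehydrogenase. The genes are known mainly for expression in larvae, while the libraries described here come from adults.

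Whole female flies were ground, a portion of the powder gave total RNA, and the remainder was run through a sucrose gradient from which a monosome fraction (RNA on single ribosomes) and a polysome fraction (RNA on several ribosomes) were taken. Poly(A) RNA of the 3 pools was sequenced, so each replicate has 3 libraries. At 15 d of age, 3 lines carry the element Lpp[TS], named after the gene of an apolipophorin made in the fat body. They are Lpp[TS]>Lsp2, the line Lpp[TS]>Rheb, and the line Lpp[TS]>w1118, with 2 replicates each. By fly notation the name after the sign is the construct that the element drives, and w1118 stands for a strain without one. The labels expand neither the suffix TS nor the constructs. Also at 15 d, the lines Thor[2];Lsp2[A10], Thor[2];Lsp2[B14], Lsp2[A10] and Lsp2[B14] have 3 replicates each. Flies of 2 to 3 d, called young here, were taken from both single lines Lsp2[A10] and Lsp2[B14], again in 3 replicates. The labels do not describe the lesions of A10, B14 and Thor[2], nor which of both Lsp2 alleles is the control. Lsp2 is thus the gene whose alleles name these lines as well as a gene measured. The number of flies pooled per replicate is not given in the sources used here.

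Levels are counts scaled to a library of 1 M counts (CPM). Polysome libraries held 3.13 to 31.3 M counts, monosome libraries 5.07 to 21.3 M and total RNA libraries 15.3 to 39.7 M. A library floor of 3 counts therefore lies between 0.0756 and 0.957 CPM, and it covers counting error only, since no molecular identifiers were used. Log2 changes come from edgeR's quasi-likelihood fits over all genes, are given with a standard error, and were called at a Benjamini-Hochberg adjusted p below 0.05. That error was derived from the test, as the size of the log2 change divided by the square root of its F statistic. It is approximate, above all for changes close to 0. In whole flies, fewer cells that make a transcript cannot be told apart from less of it per cell. The labels' batch entry repeats genotype and fraction, which leaves batch and group confounded, and they cannot be told apart. A pair of libraries stood apart in these genes. Replicate 1 of Lsp2[A10] at 15 d gave the shallowest polysome library, 3.13 M counts, which held the highest values of its group for all 6 genes. Lsp2[B14] at 15 d, replicate 3, held Lsp2 at 52.1 CPM in total RNA, against 2.34 and 4.63 CPM in replicates 1 and 2.

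The 6 genes lie at separate places in the genome (annotation BDGP6.54, the submitters' notes name BDGP6). Lsp1alpha (FBgn0002562) lies on X at 12490291 to 12492982, plus strand, Lsp1beta (FBgn0002563) on 2L at 898500 to 901316, plus strand, and Lsp1gamma (FBgn0002564) on 3L at 66430 to 68995, plus strand. Lsp2 (FBgn0002565) is a single exon on 3L at 12129393 to 12131869, plus strand. Fbp1 (FBgn0000639) lies on 3L at 14094589 to 14098053, minus strand, and Fbp2 (FBgn0000640) on 2L at 9426784 to 9427917, plus strand. The annotation places an antisense RNA, asRNA:CR11538, on the opposite strand of Lsp2. The strand setting of the counting is not given in the sources used here, so reads of the sense and antisense genes cannot be told apart. In the polysomes of Lpp[TS]>Lsp2 the antisense gene held 4931 and 5318 counts beside 341139 and 117276 on Lsp2. Fbp2 overlaps CG42847 on the same strand, which held 241 counts over all 72 libraries. Read assignment between the related LSP1 genes is likewise not stated. In total RNA of Lpp[TS]>w1118, 735 counts on Lsp1beta stood beside 0 on Lsp1alpha.

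In total RNA the genes had unlike patterns over the 9 groups of line and age. These groups come from 3 tables, with 23932 features in that of the Lpp[TS] lines and 13925 in each allele table. Where groups of different tables are ranked, group and table cannot be told apart. Lsp1beta was the steadiest: its group means ran from 7.10 CPM in Thor[2];Lsp2[B14] to 21.2 CPM in Lpp[TS]>Lsp2 in 8 of the groups, and it reached 832 ± 67.6 CPM (SD, n = 2) in Lpp[TS]>Rheb. Lsp2 had the widest range, with 7147 ± 761 CPM in Lpp[TS]>Lsp2 and 2423 ± 219 CPM in Lpp[TS]>Rheb (SD, n = 2 each), against 1.06 to 19.7 CPM in the other 7 groups. Lsp1alpha was highest in Lpp[TS]>Rheb, at 74.8 ± 23.6 CPM (SD, n = 2), then in young Lsp2[B14] at 10.2 ± 1.83 CPM and in young Lsp2[A10] at 4.54 ± 0.316 CPM (SD, n = 3 each). The libraries of neighbouring groups in that order did not overlap. Below them Thor[2];Lsp2[B14], Lsp2[B14] and Lsp2[A10] at 15 d, at 1.14, 0.678 and 0.341 CPM, overlapped. Lsp1gamma was highest in young flies, at 13.8 ± 1.66 CPM in Lsp2[A10] and 34.8 ± 7.35 CPM in Lsp2[B14] (SD, n = 3 each), and was at most 0.526 CPM in the libraries of the Lpp[TS] lines. Fbp1 and Fbp2 were low everywhere in total RNA: the highest libraries, both of Lsp2[B14] at 15 d, replicate 3, held 1.56 CPM of Fbp1 and 6.90 CPM of Fbp2.

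**Figure D1:**
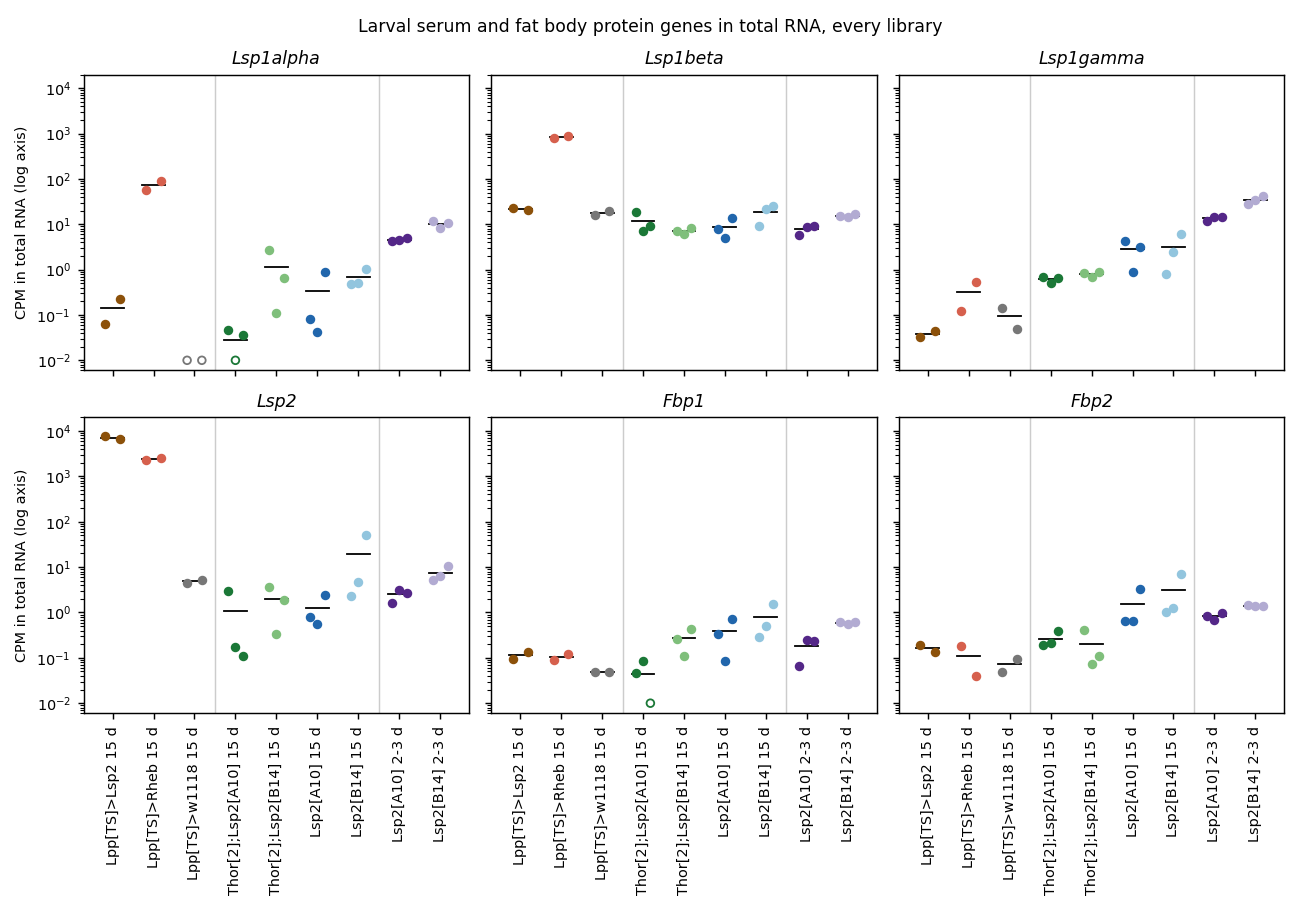
CPM of the 6 genes in total RNA on a log axis, with a point per library, a bar at the mean of each line, and open circles at the bottom for libraries with 0 counts. Lsp1alpha, Lsp1beta and Lsp2 stand high in Lpp[TS]>Rheb (74.8, 832 and 2423 CPM on average), while Lsp1gamma stands highest in young flies (13.8 and 34.8 CPM).

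Per kb of exon, which allows levels of different genes to be compared, Lsp2 led in Lpp[TS]>Lsp2 (2885 CPM per kb) and in Lpp[TS]>Rheb (978 CPM per kb). Lsp1beta led in Lpp[TS]>w1118 (6.43 CPM per kb), in both Thor[2] lines (4.29 CPM per kb with A10 and 2.58 with B14) and in Lsp2[A10] at 15 d (3.24 CPM per kb). Young flies had another order: Lsp1gamma came first, at 5.52 CPM per kb in Lsp2[A10] and 13.9 in Lsp2[B14], followed by Lsp1beta and Lsp1alpha. Fbp1 was the lowest of the 6 genes per kb in both young lines, at 0.0523 CPM per kb in Lsp2[A10] and 0.173 in Lsp2[B14].

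The Lpp[TS] lines ask what follows from driving Lsp2, or Rheb, the GTPase that activates the kinase complex mTORC1. The driven genes themselves were high. Lsp2 in total RNA stood at 7686 and 6609 CPM in Lpp[TS]>Lsp2, against 4.49 and 5.23 CPM in Lpp[TS]>w1118. Rheb ranged over 879 to 967 CPM in Lpp[TS]>Rheb and 125 to 126 CPM in Lpp[TS]>w1118, and was called 2.93 ± 0.17 log2 units higher in Lpp[TS]>Rheb than in Lpp[TS]>w1118 (edgeR adjusted p = 0.0087). Lpp[TS]>Rheb also held more RNA of 3 of the 6 genes.

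Lsp1alpha, a subunit of LSP1, stood at 58.1 and 91.5 CPM in total RNA of Lpp[TS]>Rheb and at 0 in both libraries of Lpp[TS]>w1118. Against the floor of 3 counts in a library of Lpp[TS]>w1118 (0.144 CPM), its mean was at least 518-fold higher and its lower library at least 402-fold. Lsp1beta, the next subunit, stood at 784 and 879.6 CPM in Lpp[TS]>Rheb, against 15.9 and 19.4 CPM in Lpp[TS]>w1118. Neither gene's libraries overlapped between the lines. Lsp2 stood at 2268 and 2578 CPM in Lpp[TS]>Rheb, against 4.49 and 5.23 CPM in Lpp[TS]>w1118, again without overlap. Lsp1gamma, the remaining LSP1 subunit, did not follow the other two. It had 4 and 13 counts (0.119 and 0.526 CPM) in Lpp[TS]>Rheb and 3 and 1 counts (0.145 and 0.0480 CPM) in Lpp[TS]>w1118. Fbp1, the LSP1 receptor gene, had 3 counts in each library of Lpp[TS]>Rheb and 1 in each of Lpp[TS]>w1118, and Fbp2 had 6 and 1 counts against 1 and 2.

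In edgeR's fit for total RNA of Lpp[TS]>Rheb over Lpp[TS]>w1118, Lsp1beta was 5.61 ± 0.18 log2 units higher (48.7-fold, adjusted p = 0.00063) and Lsp2 9.01 ± 0.21 higher (516-fold, adjusted p = 0.00016). Lsp1alpha was called as well (adjusted p = 0.012), but its fitted change rests on libraries at 0. All 3 genes that passed the expression filter were thus called higher, where 1.53% of all genes tested were called in either direction. Lsp1gamma, Fbp1 and Fbp2 did not pass the filter, and Lsp1alpha passed it only through Lpp[TS]>Rheb, so the share of genes called says nothing about the 6 genes together. Ranges given beside such losses span all alternatives tried. The call of Lsp1alpha was lost when any 1 of the 4 libraries was left out (adjusted p up to 0.14), and that of Lsp1beta without Lpp[TS]>w1118 replicate 1 (adjusted p = 0.0545).

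The ribosome fractions carried the same 3 genes. In monosomes of Lpp[TS]>Rheb, Lsp1alpha stood at 19.5 and 36.9 CPM, Lsp1beta at 588 and 642 CPM, and Lsp2 at 1574 and 1949 CPM. The monosomes of Lpp[TS]>w1118 held 0 counts of Lsp1alpha in both libraries, 19.9 and 20.3 CPM of Lsp1beta, and 7.37 and 4.51 CPM of Lsp2. All 3 were called higher (2.24% of genes tested were called), with Lsp1beta up by 4.98 ± 0.16 and Lsp2 by 8.26 ± 0.58 log2 units (edgeR adjusted p = 7.8e-05 and 0.0028). In polysomes of Lpp[TS]>Rheb, Lsp1alpha stood at 41.9 and 75.9 CPM, Lsp1beta at 750.3 and 938 CPM, and Lsp2 at 2554 and 3221 CPM. Polysomes of Lpp[TS]>w1118 held no count of Lsp1alpha, 15.3 and 15.0 CPM of Lsp1beta, and 6.21 and 6.47 CPM of Lsp2. Again all 3 were called higher (1.68% of genes tested were called), with Lsp1beta up by 5.95 ± 0.28 and Lsp2 by 8.98 ± 0.63 log2 units (edgeR adjusted p = 0.0042 and 0.009). In both fractions Lsp1alpha passed the filter only through Lpp[TS]>Rheb, and Lsp1gamma, Fbp1 and Fbp2 did not pass it. The shares of genes called thus say nothing about the 6 genes together there either. In monosomes the Lsp2 call was lost without either Lpp[TS]>Rheb replicate or without Lpp[TS]>w1118 replicate 2 (adjusted p up to 0.0748), and the Lsp1alpha call without any 1 replicate (up to 0.0929). The polysome calls of all 3 genes were lost without either Lpp[TS]>w1118 replicate (adjusted p up to 0.0855 for Lsp1alpha, 0.0839 for Lsp1beta and 0.156 for Lsp2), with log2 changes of 5.68 to 6.18 for Lsp1beta and 8.71 to 9.22 for Lsp2. That of Lsp2 was also lost with replicate number as a block (adjusted p = 0.0519). Lsp1alpha had no count in Lpp[TS]>w1118, so its change was taken against the floor of 3 counts in a library. By its mean the change was at least 149-fold in monosomes and at least 535-fold in polysomes. By its lower library it was at least 103-fold and 380-fold.

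**Figure D2:**
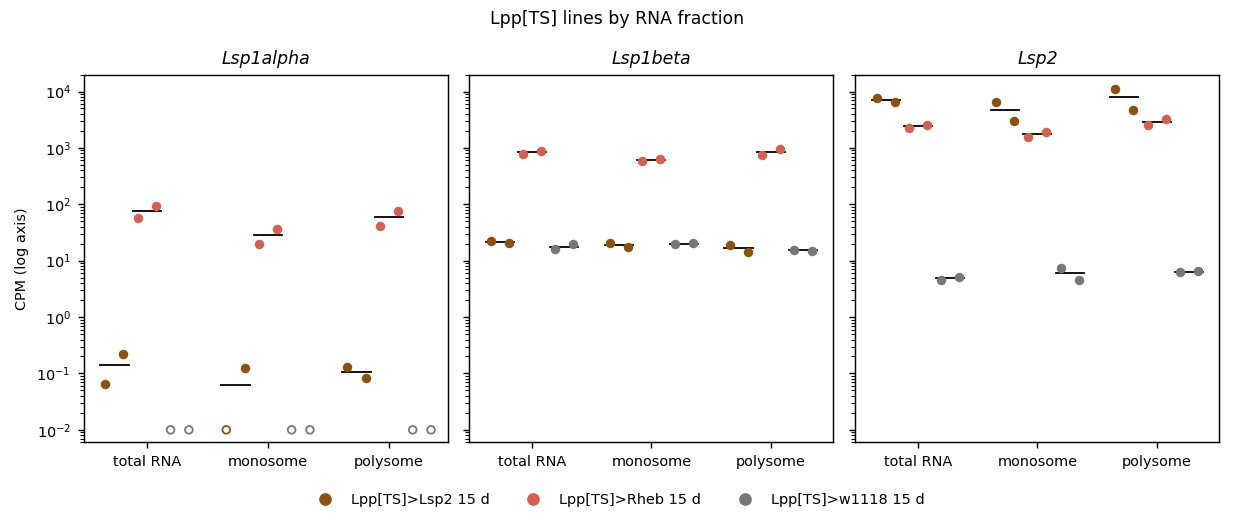
CPM of Lsp1alpha, Lsp1beta and Lsp2 in total RNA, monosomes and polysomes of Lpp[TS]>Lsp2 (left), Lpp[TS]>Rheb (middle) and Lpp[TS]>w1118 (right) on a log axis, with a point per library, a bar at each mean, and open circles for 0 counts. Only Lsp2 is raised in Lpp[TS]>Lsp2, while all 3 genes are raised in Lpp[TS]>Rheb in every fraction.

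In Lpp[TS]>Lsp2 over Lpp[TS]>w1118, Lsp2 itself was the 1 gene of the 6 called. Lsp1alpha and Lsp1beta were not, and the other 3 genes did not pass the filter in total RNA. Lsp1beta stood at 22.3 and 20.2 CPM in total RNA of Lpp[TS]>Lsp2, against 15.9 and 19.4 CPM in Lpp[TS]>w1118, a change of 0.21 ± 0.16 log2 units (edgeR adjusted p = 0.91). Lsp1alpha had 2 and 5 counts (0.0640 and 0.223 CPM) in Lpp[TS]>Lsp2 and 0 in Lpp[TS]>w1118, which is at the floor. Lsp2 was called 10.46 ± 0.22 log2 units higher in total RNA (adjusted p = 9.1e-05), 9.70 ± 0.61 higher in monosomes (0.00948) and 10.35 ± 0.66 higher in polysomes (0.0245). In those fits 0.0166%, 0.0351% and 0.0166% of the genes tested were called. The monosome and polysome calls were lost without either Lpp[TS]>w1118 replicate (adjusted p up to 0.197 and 0.597, log2 changes 8.93 to 10.24 and 9.56 to 10.84). The monosome call was lost as well without the expression filter (adjusted p = 0.197) and in a fit on these groups alone (0.13), and the polysome call with the replicate block (0.205).

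Set directly against Lpp[TS]>Lsp2, Lpp[TS]>Rheb held more Lsp1beta and less Lsp2 in total RNA. Lsp1beta was 5.40 ± 0.18 log2 units higher (edgeR adjusted p = 0.00145), and Lsp2 fell by 1.45 ± 0.15 (adjusted p = 0.0227), where 0.815% of genes tested were called. The Lsp2 call was lost without either Lpp[TS]>Rheb replicate (adjusted p up to 0.322, log2 changes of -1.56 to -1.28) and with the replicate block (adjusted p = 0.0525). Lsp1beta was also called higher in monosomes (5.0 ± 0.16, 0.798% called) and polysomes (5.76 ± 0.28, 0.357% called), and its polysome call was lost with the replicate block (adjusted p = 0.0546). Lsp1alpha had 1948 and 2263 counts in total RNA of Lpp[TS]>Rheb, against 2 and 5 in Lpp[TS]>Lsp2. In monosomes it had 415 and 455 counts against 0 and 2, and in polysomes 1288 and 1822 against 4 and 2. It was called higher in all 3 (adjusted p = 0.0137, 0.0125 and 0.0248), but passed the filter through Lpp[TS]>Rheb alone, and with the other line at or near the floor no size is given. Its call was lost in total RNA and monosomes without either Lpp[TS]>Rheb replicate (adjusted p up to 0.159 and 0.175), and in polysomes without Lpp[TS]>Lsp2 replicate 1 (0.0646) and with the replicate block (0.0796). Lsp2 changed there by -1.44 ± 0.42 and -1.37 ± 0.45 and was not called (adjusted p = 0.241 and 0.345), but was called in both fractions without Lpp[TS]>Lsp2 replicate 2. Its polysome libraries in Lpp[TS]>Lsp2 were far apart, at 10895 and 4797 CPM.

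The level on polysomes relative to total RNA, called translational efficiency below, was close to 1 for Lsp2 in all Lpp[TS] lines. Its log2 value was 0.04 ± 0.36 in Lpp[TS]>Lsp2, 0.09 ± 0.36 in Lpp[TS]>Rheb and 0.11 ± 0.40 in Lpp[TS]>w1118, over lines whose mean Lsp2 level in total RNA differed up to 1471-fold. For Lsp1beta it was -0.47 ± 0.21, -0.14 ± 0.20 and -0.49 ± 0.21 in the same lines. None of these was called in edgeR's fit (29.6%, 26.4% and 22.3% of genes were, in the order of the lines above), at an unadjusted p below 0.05 Lsp1beta passed in Lpp[TS]>Lsp2 and Lpp[TS]>w1118, and DESeq2 called it in Lpp[TS]>Lsp2. Between the lines no gene tested was called for translational efficiency. In Lpp[TS]>Lsp2 over Lpp[TS]>w1118, 285 genes had an unadjusted p below 0.05 and DESeq2 called 1. In Lpp[TS]>Rheb these counts were 179 and 4 over Lpp[TS]>w1118 and 1029 and 18 over Lpp[TS]>Lsp2, and none of the 6 genes was among those that passed either way. With replicate number as a block, which pairs the fractions made from 1 powder, 34.6% to 41.2% of genes were called within the lines, and Lsp1beta was called lower on polysomes in Lpp[TS]>Lsp2 (-0.49 ± 0.17, adjusted p = 0.035) and in Lpp[TS]>w1118 (-0.48 ± 0.17, adjusted p = 0.046), and Lsp1alpha in Lpp[TS]>Rheb (-0.54 ± 0.17, adjusted p = 0.032). Polysomes over monosomes gave no call for the 6 genes within the Lpp[TS] lines (3.67%, 4.09% and 4.04% of genes were called in the same order). With the block (18.4% to 19% called) Lsp2 was called higher on polysomes than monosomes in Lpp[TS]>Lsp2 (0.71 ± 0.16, adjusted p = 0.0145) and Lpp[TS]>Rheb (0.77 ± 0.16, 0.00943), as were Lsp1alpha (1.12 ± 0.16, 0.00192) and Lsp1beta (0.50 ± 0.10, 0.00672) in Lpp[TS]>Rheb, while Lsp1beta was lower in Lpp[TS]>w1118 (-0.44 ± 0.12, 0.0274).

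Other cell types and related genes were read beside these changes. Summed male accessory gland and testis markers (9 genes) stood at 0.0298 to 0.121 CPM in total RNA of Lpp[TS]>Rheb, at 0.0892 to 24.8 CPM in Lpp[TS]>Lsp2 and at 5.45 to 14.5 CPM in Lpp[TS]>w1118, although the flies are labelled female. Ovary and eggshell markers summed to 171 to 177 CPM in Lpp[TS]>Rheb, 165 to 264 CPM in Lpp[TS]>Lsp2 and 205 to 237 CPM in Lpp[TS]>w1118, and 4 of 9 were called lower in Lpp[TS]>Rheb than in Lpp[TS]>w1118. Among all genes tested in total RNA, 0.224% were called lower in that comparison. Adult fat body markers (7 genes) summed to between 14138 and 14706 CPM in total RNA of Lpp[TS]>Rheb, 8781 and 10332 CPM in Lpp[TS]>Lsp2 and 11653 and 12210 CPM in Lpp[TS]>w1118. In polysomes they summed to between 13543 and 17019 CPM in Lpp[TS]>Rheb and 7850 and 7911 CPM in Lpp[TS]>w1118. Larval cuticle markers (8 genes) stood at 0.239 to 0.607 CPM in total RNA of Lpp[TS]>Rheb, at 0.608 to 0.713 CPM in Lpp[TS]>Lsp2 and at 0.483 to 0.624 CPM in Lpp[TS]>w1118, and in polysomes at 0.423 to 1.75 CPM in Lpp[TS]>Rheb and 2.29 to 2.54 CPM in Lpp[TS]>w1118. What part the male, ovary and adult fat body markers have in the Lpp[TS]>Rheb differences was not tested.

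The hemocyanin relatives of the hexamerins, the prophenol oxidase genes PPO1, PPO2 and PPO3, were not called in Lpp[TS]>Rheb over Lpp[TS]>w1118 (0 of 3, median log2 change 0.26, against -0.04 over all genes). Of 14 regulators of the ecdysone and juvenile hormone pathways, such as EcR, br and Kr-h1, 0 were called (median 0.06). Adh, the alcohol dehydrogenase related to Fbp2, was called higher in polysomes only (3.05 ± 0.49, edgeR adjusted p = 0.046).

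Young flies of the allele lines held all 6 genes, and polysomes held the most. In Lsp2[B14] polysomes, Lsp1gamma reached 324, 331 and 171 CPM, Lsp1beta 189, 211 and 118 CPM, and Lsp1alpha 153, 159.6 and 85.7 CPM. The 6 genes together summed to 664 ± 205 CPM there (SD, n = 3), against 70.0 ± 10.8 CPM in total RNA of the same flies. In Lsp2[A10] the sum was 141 ± 19.0 CPM in polysomes and 29.7 ± 4.57 CPM in total RNA (SD, n = 3 each).

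**Figure D3:**
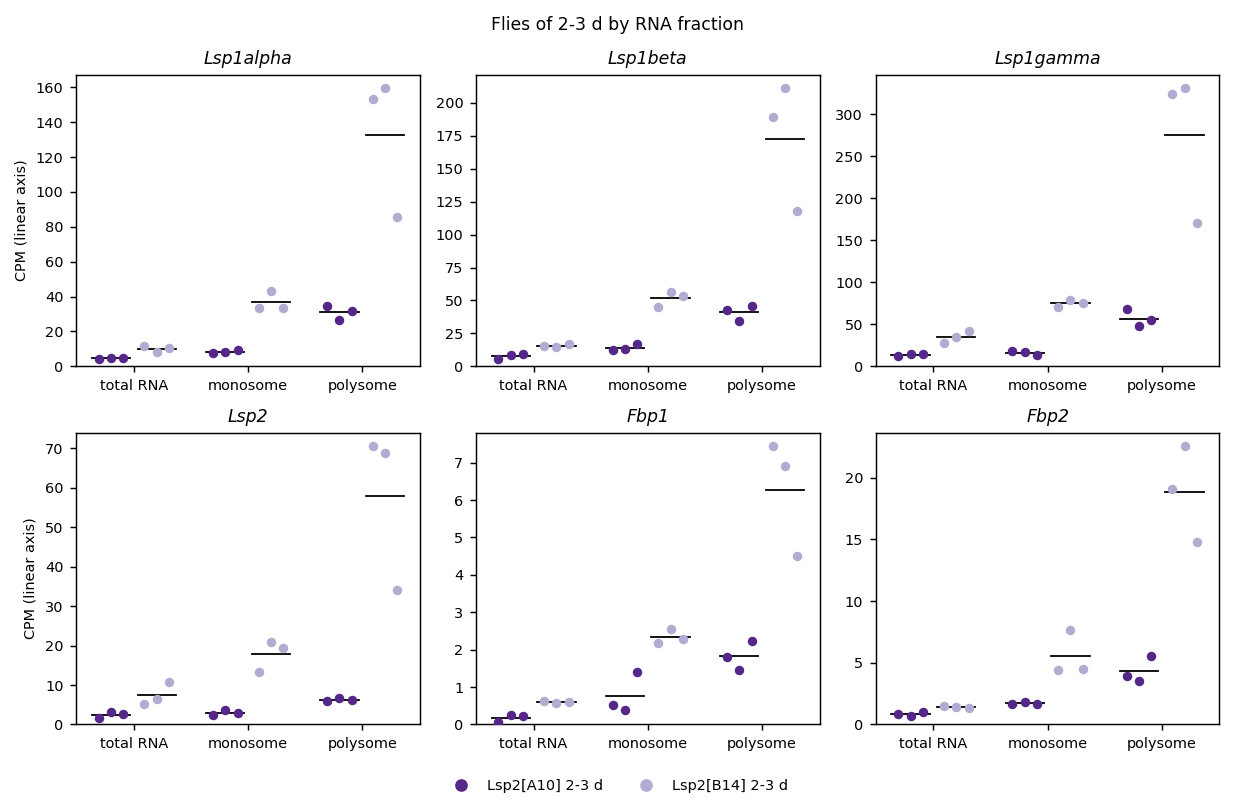
CPM of the 6 genes in total RNA, monosomes and polysomes of Lsp2[A10] and Lsp2[B14] flies of 2 to 3 d, with a point per library and a bar at each mean, on linear axes from 0. In every panel and fraction the 3 Lsp2[A10] libraries lie below the 3 Lsp2[B14] libraries, and the gap is widest on polysomes, as for Lsp2 at 6.28 and 57.8 CPM on average.

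Set against Lsp2[B14], young Lsp2[A10] flies had lower values of all 6 genes in every fraction, with no overlap of libraries. In total RNA, Lsp1alpha stood at 4.25, 4.50 and 4.88 CPM in Lsp2[A10] and at 11.7, 8.16 and 10.7 CPM in Lsp2[B14]. Lsp1gamma stood at 11.9, 14.7 and 14.8 CPM in Lsp2[A10] and at 27.5, 34.5 and 42.2 CPM in Lsp2[B14]. In edgeR's fit these were the 2 genes called: Lsp1alpha fell by 1.16 ± 0.17 (2.23-fold, edgeR adjusted p = 0.030) and Lsp1gamma by 1.34 ± 0.18 log2 units (2.53-fold, adjusted p = 0.023), where 0.332% of genes tested were called. Lsp1beta stood at 5.75, 8.64 and 9.15 CPM in Lsp2[A10] and at 15.4, 14.6 and 16.6 CPM in Lsp2[B14] (change -0.97 ± 0.18, adjusted p = 0.091). Lsp2 changed by -1.58 ± 0.34, Fbp1 by -1.58 ± 0.40 and Fbp2 by -0.78 ± 0.23, all without a call (adjusted p = 0.17, 0.31 and 0.53). DESeq2 called 4 genes, adding Lsp1beta and Lsp2, as did edgeR with the replicate block (adjusted p = 0.0027 and 0.0016). Leaving out any 1 Lsp2[A10] replicate removed both calls in total RNA, as did leaving out Lsp2[B14] replicate 2 for Lsp1gamma (log2 changes -1.31 to -1.07 and -1.51 to -1.14, adjusted p up to 0.25 and 0.17).

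On ribosomes all 6 genes were called lower in Lsp2[A10], in both fractions. In monosomes Lsp2 stood at 2.35, 3.68 and 2.79 CPM in Lsp2[A10], against 13.2, 20.8 and 19.3 CPM in Lsp2[B14]. Lsp1gamma stood at 18.4, 17.5 and 13.4 CPM in Lsp2[A10] monosomes, against 70.5, 79.4 and 75.0 CPM in Lsp2[B14]. The monosome changes ran from -1.72 ± 0.46 for Fbp1 (edgeR adjusted p = 0.041) to -2.69 ± 0.26 for Lsp2 (adjusted p = 0.00021, 6.46-fold lower), with -2.23, -1.99 and -2.3 for Lsp1alpha, Lsp1beta and Lsp1gamma. In that fit 10% of genes tested were called, and DESeq2 called 5 of the 6 genes and gave no adjusted p for Fbp1. The edgeR Fbp1 call was lost without Lsp2[A10] replicate 1 or 2 or Lsp2[B14] replicate 2 or 3, and with library totals as scaling, and the Fbp2 call (-1.74) without Lsp2[A10] replicate 1 or 2 (log2 changes -2.47 to -1.35 and -1.92 to -1.44, adjusted p up to 0.18 and 0.083).

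In polysomes Lsp2 stood at 5.97, 6.67 and 6.18 CPM in Lsp2[A10], against 70.5, 68.9 and 34.1 CPM in Lsp2[B14]. Lsp1alpha stood at 34.8, 26.7 and 31.6 CPM in Lsp2[A10], against 153, 159.6 and 85.7 CPM in Lsp2[B14]. Fbp2 stood at 3.96, 3.50 and 5.59 CPM in Lsp2[A10], against 19.1, 22.6 and 14.8 CPM in Lsp2[B14]. The lowest Lsp2[B14] library, replicate 3, lay above every Lsp2[A10] library for each gene. Lsp2 fell by 3.35 ± 0.25 log2 units (10.2-fold, edgeR adjusted p = 0.00071). The 3 LSP1 subunits fell by 2.25 ± 0.21, 2.22 ± 0.21 and 2.43 ± 0.23 (alpha, beta and gamma, adjusted p = 0.0018, 0.0018 and 0.0019). Fbp2 fell by 2.25 ± 0.24 and Fbp1 by 1.90 ± 0.25 (adjusted p = 0.0018 and 0.007). In that fit 6.43% of genes tested were called, and 3.75% of genes tested were called lower. The Fbp1 call was lost without Lsp2[A10] replicate 2 or Lsp2[B14] replicate 2 (log2 change -2.14 to -1.75, adjusted p up to 0.068).

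Whether the translational efficiency of the genes differed between the alleles in young flies depended on the fit. Its change was -1.05 ± 0.28 for Lsp1alpha, -1.20 ± 0.29 for Lsp1beta, -1.05 ± 0.32 for Lsp1gamma, -1.72 ± 0.46 for Lsp2, -1.43 ± 0.36 for Fbp2 and -0.29 ± 0.57 for Fbp1. None was called (edgeR adjusted p = 0.083 to 0.79), in a fit that called 0.0687% of genes, although 5 of the 6 had an unadjusted p below 0.05 and DESeq2 called 5. With replicate number as a block, Lsp1alpha, Lsp1beta and Fbp2 were called (-1.03, -1.17 and -1.45, adjusted p = 0.039, 0.018 and 0.0082), and so were 15.6% of all genes tested. Replicate by replicate, the polysome over total RNA ratio of Lsp2 was 3.65, 2.11 and 2.3 in Lsp2[A10] and 13.6, 10.6 and 3.16 in Lsp2[B14], so the lines overlapped. For Lsp1alpha it was 8.19, 5.94 and 6.48 in Lsp2[A10] and 13.1, 19.5 and 7.98 in Lsp2[B14], which overlapped too. For Fbp2 it was 4.66, 5.25 and 5.73 in Lsp2[A10] and 13.0, 16.0 and 10.9 in Lsp2[B14], without overlap. For each of these genes the ratio was lower in Lsp2[A10] in all 3 pairs of libraries with the same number. The ratio of polysomes to monosomes did not differ by more than its error for Lsp1alpha (0.02 ± 0.29) or Lsp1gamma (-0.10 ± 0.28), and no gene tested was called in that contrast (262 had an unadjusted p below 0.05, and DESeq2 called 0).

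In polysomes the summed markers of larval cuticle, larval salivary gland glue and adult fat body overlapped between the young lines. Larval cuticle markers summed to 3.08 to 6.45 CPM in Lsp2[A10] polysomes and 5.46 to 6.13 CPM in Lsp2[B14] polysomes. Larval salivary gland glue genes (8 genes) summed to 0.108 to 0.991 CPM and 0.190 to 0.893 CPM in the same libraries. Adult fat body markers summed to between 12904 and 15822 CPM in Lsp2[A10] polysomes and between 11282 and 13229 CPM in Lsp2[B14] polysomes. Among the adult fat body genes, apolpp, which encodes the lipoprotein precursor apolipophorin, was called higher in Lsp2[A10] monosomes and polysomes (0.45 ± 0.13 and 0.57 ± 0.12, edgeR adjusted p = 0.045 and 0.029). Of the ecdysone and juvenile hormone regulators, ftz-f1 and usp, both nuclear receptor genes, were called higher in Lsp2[A10] monosomes (0.86 ± 0.21 and 0.51 ± 0.15, adjusted p = 0.034 and 0.046), as 2 of 13 tested. PPO genes were not called (0 of 2 tested in monosomes and 0 of 3 in polysomes).

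Within each young line, all 6 genes were more abundant on polysomes than in total RNA. In Lsp2[A10] the log2 ratio ran from 1.33 ± 0.35 for Lsp2 (edgeR adjusted p = 0.0042) to 3.24 ± 0.38 for Fbp1 (adjusted p = 2.4e-06). Fbp1 had 13 counts over the 3 total RNA libraries of young Lsp2[A10]. It averaged 0.181 CPM there, near the floor of 3 counts (0.147 CPM on average), and its lowest library held 0.0654 CPM. The size of the Fbp1 ratio in Lsp2[A10] is therefore uncertain. In Lsp2[B14] the log2 ratio ran from 3.06 ± 0.30 for Lsp2 to 3.90 ± 0.23 for Fbp2 (adjusted p = 5.2e-07 and 1.2e-09), that is 8.33-fold to 15.0-fold. All 6 were called higher in both lines, where 34.1% of genes tested in Lsp2[A10] and 37.9% in Lsp2[B14] were called higher, and the median over all genes was near 0. Polysomes also exceeded monosomes: 5 of the 6 genes were called in Lsp2[A10] (22.9% of genes tested) and 6 of 6 in Lsp2[B14] (29.1%). Those log2 ratios ran from 0.93 to 1.71 for the 5 called in Lsp2[A10] and from 1.29 to 1.71 in Lsp2[B14]. Fbp1 in Lsp2[A10], at 1.15 ± 0.42 (adjusted p = 0.061), was called with the replicate block (1.12 ± 0.34, adjusted p = 0.018). Leaving out any 1 replicate removed the Lsp2 and Fbp2 calls in Lsp2[A10] (adjusted p up to 0.19 and 0.11, log2 ratios 0.80 to 1.09 and 0.95 to 1.35), and leaving out replicate 1 the Fbp1 call in Lsp2[B14] (up to 0.059, 1.14 to 1.43).

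**Figure D4:**
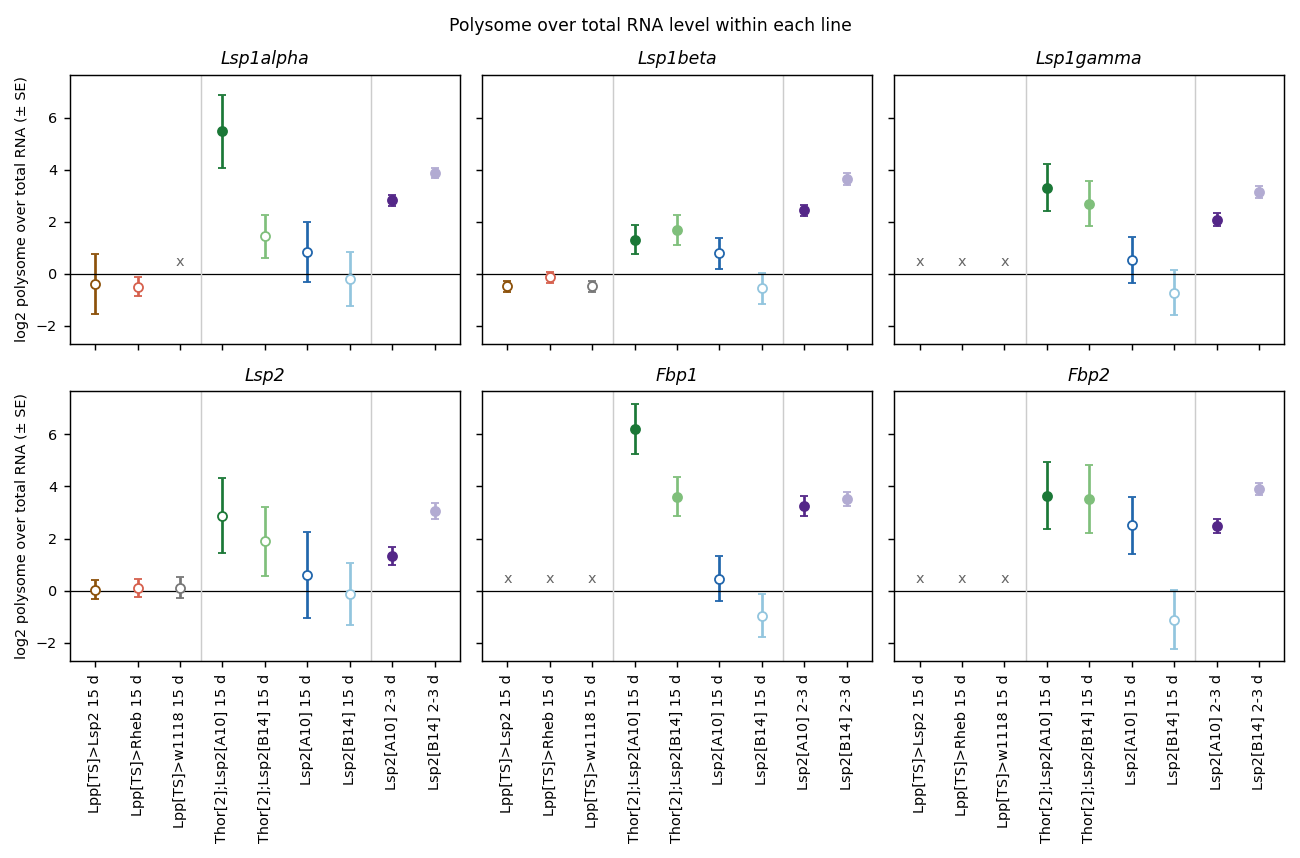
Log2 ratio of polysome to total RNA level within each line, with its standard error, filled where called by edgeR and open where not, and a cross where the gene did not pass the filter or no error could be fitted. All 6 genes are filled and above 1.3 in the young lines, near 0 for Lsp2 in the Lpp[TS] lines, and open for every gene in Lsp2[A10] and Lsp2[B14] at 15 d.

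At 15 d the excess on polysomes was not called in Lsp2[A10] (0.46 to 2.51, 64.5% of genes called) or Lsp2[B14] (-1.12 to -0.13, 68.5% called). The sign of these log2 ratios rested on the libraries that stood apart. Without the shallow replicate 1 all 6 were negative in Lsp2[A10] (-0.88 to -0.23), and without replicate 3 the 6 genes ran from -0.36 for Lsp1beta to 0.51 for Fbp2 in Lsp2[B14], with 5 above 0, again with no call. The excess was called in the Thor[2] lines for 5 genes with A10 (67.7% of genes called) and 4 genes with B14 (68.9% called). In Thor[2];Lsp2[B14] Fbp1 and Fbp2 had the highest ratios, at 3.60 ± 0.75 and 3.54 ± 1.31 (edgeR adjusted p = 0.00017 and 0.023). Fbp2 averaged 0.198 CPM in total RNA of that line, near the floor, so the size of its ratio is uncertain. In Thor[2];Lsp2[A10] the called genes included Fbp1 and Lsp1alpha, but these had 3 and 2 counts over the 3 total RNA libraries, under the floor, so no ratio is given. The other 3 called there were Lsp1gamma (3.31 ± 0.90), Fbp2 (3.64 ± 1.28) and Lsp1beta (1.31 ± 0.57, adjusted p = 0.0034, 0.018 and 0.0496). With the replicate block Lsp2 was called too in Thor[2];Lsp2[A10] (3.31 ± 1.13, adjusted p = 0.027), and in Thor[2];Lsp2[B14] Fbp2 was lost (3.41 ± 1.47, adjusted p = 0.062) and Lsp1alpha gained (1.95 ± 0.77, adjusted p = 0.035). Leaving out 1 Thor[2];Lsp2[A10] replicate removed the calls of Fbp2 (any of 3) and Lsp1beta (replicate 2 or 3), with adjusted p up to 0.087 and 0.24 and log2 ratios of 3.37 to 3.95 and 0.98 to 1.84. Leaving out 1 Thor[2];Lsp2[B14] replicate removed those of Lsp1beta (any of 3), Fbp2 (replicate 2 or 3) and Lsp1gamma (replicate 3), with adjusted p up to 0.092, 0.2 and 0.067 and log2 ratios of 1.47 to 1.79, 2.52 to 5.10 and 2.48 to 2.81.

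Age was compared within each allele, 15 d over 2 to 3 d. Both ages were deposited in separate tables, so age and table cannot be told apart. The LSP1 subunit genes alpha and gamma fell in both alleles and in all fractions, while Lsp1beta was not called in total RNA. In total RNA, Lsp1alpha stood at 0.0821, 0.0424 and 0.900 CPM at 15 d and at 4.25, 4.50 and 4.88 CPM in young flies of Lsp2[A10]. In Lsp2[B14] it stood at 0.483, 0.498 and 1.05 CPM at 15 d and at 11.7, 8.16 and 10.7 CPM in young flies. The ages did not overlap in either allele. Lsp1alpha fell by 3.86 ± 0.56 log2 units in Lsp2[A10] (14.5-fold, edgeR adjusted p = 0.000165) and by 3.99 ± 0.49 in Lsp2[B14] (15.9-fold, adjusted p = 4.8e-05). At 15 d the Lsp2[A10] libraries with 0.0821 and 0.0424 CPM lay under the floor of 3 counts (0.124 CPM on average). The size of the fall in Lsp2[A10] is therefore uncertain.

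Lsp1gamma stood at 4.31, 0.890 and 3.15 CPM at 15 d and at 11.9, 14.7 and 14.8 CPM in young flies of Lsp2[A10]. In Lsp2[B14] it stood at 0.805, 2.46 and 6.11 CPM at 15 d and at 27.5, 34.5 and 42.2 CPM in young flies. It fell by 2.47 ± 0.54 in Lsp2[A10] and by 3.58 ± 0.53 in Lsp2[B14] (5.52-fold and 11.9-fold, edgeR adjusted p = 0.0033 and 0.00032), again without overlap. These 2 of 6 genes were called lower in total RNA, where 44.6% of genes tested were called in Lsp2[A10] and 38.1% in Lsp2[B14]. Lsp1beta changed by 0.02 ± 0.37 in Lsp2[A10] and 0.16 ± 0.35 in Lsp2[B14]. Lsp2, Fbp1 and Fbp2 had changes between -1.17 and 1.24 with standard errors of 0.60 to 1.14 and were not called. In Lsp2[B14] their direction rested on replicate 3 of 15 d: Lsp2, Fbp2 and Fbp1 changed by 1.24, 1.01 and 0.29 with it and by -1.23, -0.40 and -0.70 without it, still with no call.

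On polysomes 5 genes were called lower with age in Lsp2[B14] and 3 in Lsp2[A10]. In Lsp2[B14], Lsp1alpha stood at 0.509, 0.590 and 0.334 CPM at 15 d, against 153, 159.6 and 85.7 CPM in young flies, a change of -8.04 ± 0.49 log2 units (264-fold, edgeR adjusted p = 1.2e-07). The 15 d libraries held 20 counts of Lsp1alpha together, so the size of this change is uncertain. Lsp1gamma stood at 1.30, 1.57 and 2.17 CPM at 15 d, against 324, 331 and 171 CPM in young flies, a change of -7.49 ± 0.88 (adjusted p = 0.00015). Lsp1beta, not called in total RNA, stood at 7.07, 13.2 and 12.3 CPM at 15 d, against 189, 211 and 118 CPM in young flies, a change of -4.06 ± 0.64 (16.6-fold, adjusted p = 0.00074). Fbp1, with 8, 6 and 0 counts at 15 d, fell by 4.18 ± 0.54 and Fbp2 by 4.0 ± 1.16 (adjusted p = 4.3e-05 and 0.02), so 5 of 6 genes were called lower, where 45.9% of genes tested were called. Lsp2 changed by -2.00 ± 0.96 (adjusted p = 0.12), and without Lsp2[B14] replicate 3 at 15 d by -3.98 (adjusted p = 0.0019). The Fbp2 call was lost without any 1 Lsp2[B14] replicate of 15 d (-4.42 to -3.78, adjusted p up to 0.059).

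In Lsp2[A10] polysomes, Lsp1alpha fell by 6.15 ± 0.51, Lsp1gamma by 4.50 ± 0.84 and Fbp1 by 2.07 ± 0.57 log2 units (edgeR adjusted p = 2.4e-06, 0.0025 and 0.0099), where 41.7% of genes tested were called. The 15 d polysome libraries held 21 counts of Lsp1alpha together. Without the shallow replicate 1 of 15 d the changes were -6.98, -5.84 and -2.62, and Lsp1beta (-2.65, adjusted p = 9.1e-05) and Fbp2 (-1.55, adjusted p = 0.027) were called as well. The Fbp1 call was lost without replicate 2 or 3 of 15 d (-2.62 to -1.49, adjusted p up to 0.067). In monosomes, Lsp1alpha and Lsp1gamma fell by 5.33 ± 0.43 and 3.22 ± 0.56 in Lsp2[A10] (45.6% of genes called), and 5 of 6 genes fell in Lsp2[B14] (59.7% called), from 1.70 ± 0.31 for Lsp1beta to 6.93 ± 0.42 for Lsp1alpha. The 15 d monosome libraries held 13 counts of Lsp1alpha together in Lsp2[A10] and 12 in Lsp2[B14]. The Fbp2 call in Lsp2[B14] monosomes (-1.80) was lost without replicate 1 or 2 of 15 d or replicate 2 of young flies, and with library totals as scaling (-2.21 to -1.38, adjusted p up to 0.085). Lsp2, not called there at -0.43 ± 0.88, was called without Lsp2[B14] replicate 3 at 15 d (-2.53, adjusted p = 8.6e-05).

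Translational efficiency fell with age in Lsp2[B14] for 5 of 6 genes, from 3.81 ± 1.02 log2 units for Lsp1gamma to 4.90 ± 1.40 for Fbp2, with 3.95, 4.11 and 4.37 for Lsp1alpha, Lsp1beta and Fbp1 (edgeR adjusted p = 0.0094, 0.014, 0.0012, 0.00051 and 0.001). In that fit 11.5% of genes tested were called lower and 18.6% higher. With the replicate block Lsp2 was called (-2.80 ± 0.88, adjusted p = 0.034) and Fbp2 was not (-4.29 ± 1.57, adjusted p = 0.062). Without Lsp2[B14] replicate 3 at 15 d the Fbp2 and Lsp1gamma calls were lost (-3.30 and -2.98, adjusted p = 0.118 and 0.0686), and Lsp2 was called (-2.62, adjusted p = 0.0371). In Lsp2[A10] none of the 6 was called (-2.80 to -0.12, 29.7% of genes called), and without the shallow replicate 1 Lsp1alpha, Lsp1beta, Lsp1gamma and Fbp1 were (-3.53, -2.67, -2.85 and -3.47). Polysomes over monosomes fell with age for Lsp1beta in Lsp2[B14] (-2.37 ± 0.72, adjusted p = 0.018, 32.4% of genes called), a call lost without Lsp2[B14] replicate 2 or 3 of 15 d or young replicate 1 or 2 (-2.72 to -2.08, up to 0.0689). With the block Lsp2 was called there as well (-1.49 ± 0.54, adjusted p = 0.0435). The age by allele interaction was called by edgeR for none of the 6 genes in any readout (0.274% of genes were called in total RNA and 10.3% in monosomes). In polysomes and in both fraction ratios it was called for no gene tested. At an unadjusted p below 0.05 there were 4 genes in monosomes, 4 in polysomes and 2 for translational efficiency, and DESeq2 called 1 in monosomes (Fbp2). Leaving out 1 library gave edgeR calls in monosomes: Lsp1gamma without Lsp2[B14] replicate 3 of 15 d (3.98, adjusted p = 0.0053), Fbp2 without Lsp2[A10] replicate 3 of 15 d (2.79, 0.0114) and Fbp1 without young Lsp2[A10] replicate 3 (2.95, 0.0191). Whether the age change differs between the alleles in monosomes thus depended on single libraries.

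The PPO genes moved the other way from Lsp1alpha and Lsp1gamma with age. PPO1, PPO2 and PPO3, which encode the prophenol oxidases of melanization, were all called higher at 15 d in total RNA, by 2.11 ± 0.31, 1.63 ± 0.29 and 1.48 ± 0.28 in Lsp2[A10] and by 2.74 ± 0.30, 1.59 ± 0.28 and 0.87 ± 0.26 in Lsp2[B14] (edgeR adjusted p = 0.00019, 0.00071 and 0.0011, and 1.9e-05, 0.0008 and 0.021). Of the 14 ecdysone and juvenile hormone regulators 3 were called higher and 1 lower in Lsp2[A10], and 6 higher and 0 lower in Lsp2[B14]. Among all genes tested, 20.8% were called higher and 23.8% lower in Lsp2[A10], and 18.3% higher and 19.8% lower in Lsp2[B14]. EcR, the ecdysone receptor gene, changed by 0.34 ± 0.09 and 0.35 ± 0.09 (adjusted p = 0.0091 each). Larval cuticle markers summed to 0.327 to 0.806 CPM at 15 d and to 1.5 to 2.51 CPM in young flies of Lsp2[A10], and to 0.136 to 0.676 CPM and 1.38 to 1.64 CPM in Lsp2[B14]. Of the 8, 1 passed the filter in total RNA and was called lower in both alleles. Their part in the age changes was not tested.

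Thor encodes 4E-BP, a repressor of translation that mTORC1 inactivates. Thor itself stood at 253 to 364 CPM in total RNA of Thor[2];Lsp2[A10], against 221 to 291 CPM in Lsp2[A10], and at 257 to 309 CPM in Thor[2];Lsp2[B14], against 248 to 286 CPM in Lsp2[B14]. Its RNA was thus not lower in the lines labelled Thor[2] (change 0.42 ± 0.14, edgeR adjusted p = 0.0166 with A10, and 0.23 ± 0.14, 0.15 with B14), and with the lesion not described, this level does not check the label. Thor[2] below stands for that label. The Thor[2] lines were compared with lines of the same allele, where 66.8% (A10) and 69.2% (B14) of all genes tested in total RNA were called, so a call there is no rare event. In total RNA 2 of the 6 genes were called lower with A10 and 3 with B14. Lsp1gamma was called in both: it stood at 0.703, 0.515 and 0.649 CPM in Thor[2];Lsp2[A10] and at 4.31, 0.890 and 3.15 CPM in Lsp2[A10], a change of -1.95 ± 0.66 log2 units (edgeR adjusted p = 0.019). It stood at 0.856, 0.692 and 0.866 CPM in Thor[2];Lsp2[B14] and at 0.805, 2.46 and 6.11 CPM in Lsp2[B14], a change of -1.82 ± 0.64 (adjusted p = 0.021). With B14 the libraries overlapped. Fbp1 was called lower with A10 (adjusted p = 0.041), with 1, 2 and 0 counts in Thor[2];Lsp2[A10] and 8, 2 and 18 in Lsp2[A10], and Lsp1beta and Fbp2 fell with B14 (-1.27 ± 0.45 and -3.65 ± 0.95, adjusted p = 0.024 and 0.0042). Except for Fbp2, each of these calls was lost on leaving out 1 library, and the change of Fbp2 was smaller without Lsp2[B14] replicate 3 (-2.23, adjusted p = 0.0309). In total RNA of Thor[2];Lsp2[B14] Fbp2 averaged 0.198 ± 0.187 CPM (SD), near the floor of 3 counts (0.120 CPM on average). The size of the Fbp2 change is therefore uncertain. Lsp1gamma was lost without Lsp2[A10] replicate 1 or Thor[2];Lsp2[A10] replicate 2 (-2.37 to -1.52, adjusted p up to 0.082), and with B14 without Lsp2[B14] replicate 3 or any Thor[2];Lsp2[B14] replicate (-2.28 to -0.89, up to 0.199). Fbp1 was lost without Lsp2[A10] replicate 1 or 3 or any Thor[2];Lsp2[A10] replicate (up to 0.197), and Lsp1beta without Lsp2[B14] replicate 2 or 3 or any Thor[2];Lsp2[B14] replicate (-1.61 to -1.01, up to 0.087). Fbp2, not called with A10 at -2.28, was called lower without Lsp2[A10] replicate 1 (-2.65, adjusted p = 0.0345) or replicate 2.

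**Figure D5:**
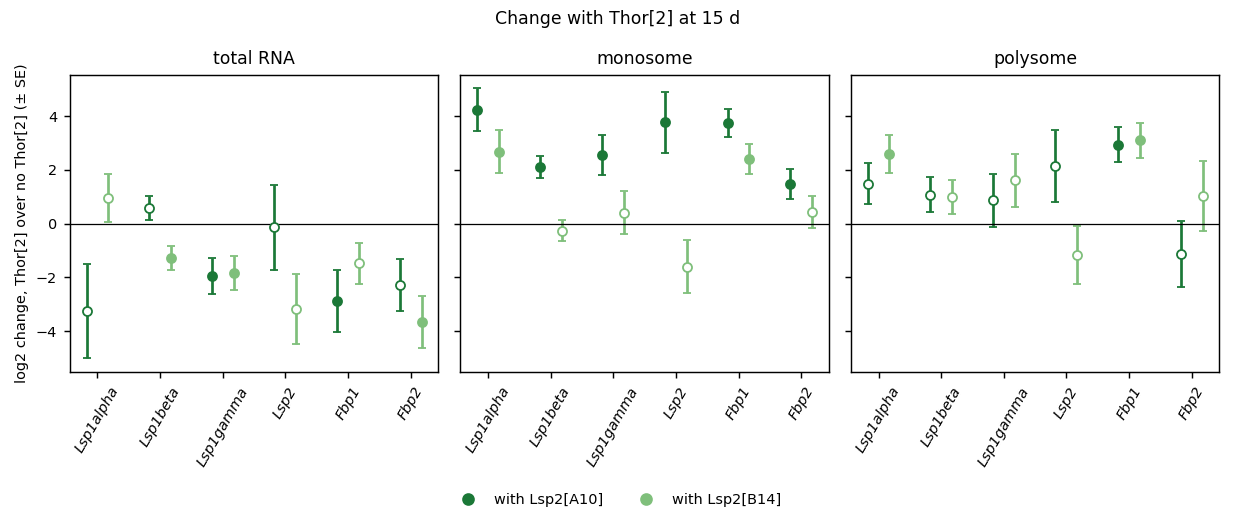
Log2 change of the 6 genes with Thor[2], within Lsp2[A10] and within Lsp2[B14] flies of 15 d, with its standard error, filled where called by edgeR and open where not. In monosomes all 6 genes are filled and above 0 with A10 (1.49 to 4.24), and 2 are filled with B14.

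In monosomes all 6 genes were called higher with Thor[2] in A10, and 2 in B14. Lsp1alpha stood at 8.14, 4.24 and 3.05 CPM in Thor[2];Lsp2[A10], against 0.226, 0.341 and 0.205 CPM in Lsp2[A10]. Lsp1beta stood at 78.0, 29.7 and 39.9 CPM in Thor[2];Lsp2[A10], against 9.92, 16.1 and 8.12 CPM in Lsp2[A10]. Fbp1 stood at 14.7, 6.95 and 6.86 CPM in Thor[2];Lsp2[A10], against 0.677, 0.738 and 0.668 CPM in Lsp2[A10]. Each of these was higher in 3 of 3 replicates, without overlap. All 6 genes were called higher (52.3% of genes tested were called in either direction and 27.3% higher): Lsp1alpha by 4.24 ± 0.81, Lsp1beta by 2.11 ± 0.39, Lsp1gamma by 2.57 ± 0.74, Lsp2 by 3.77 ± 1.12, Fbp1 by 3.76 ± 0.51 and Fbp2 by 1.49 ± 0.56 log2 units (edgeR adjusted p = 0.00074, 0.0012, 0.012, 0.02, 5.5e-05 and 0.035). The calls of Lsp1gamma, Lsp2 and Fbp2 were lost without Lsp2[A10] replicate 1 or 3 or Thor[2];Lsp2[A10] replicate 1, and further without Lsp2[A10] replicate 2 for Lsp2 and Thor[2];Lsp2[A10] replicate 3 for Fbp2 (adjusted p up to 0.0581, 0.0855 and 0.116, log2 changes 2.14 to 2.99, 3.34 to 4.49 and 0.97 to 2.53).

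With B14, Lsp1alpha and Fbp1 were called higher in monosomes (2.68 ± 0.81 and 2.41 ± 0.56, edgeR adjusted p = 0.025 and 0.007), where 24.3% of genes tested were called. The Lsp1alpha call was lost without Lsp2[B14] replicate 1 or 2 or Thor[2];Lsp2[B14] replicate 1 (1.88 to 3.89, adjusted p up to 0.16). Without Lsp2[B14] replicate 3, Lsp1gamma was called as well (2.27, adjusted p = 0.0206, against 0.41 with all libraries). Lsp1beta, at 17.9, 11.3 and 17.1 CPM in Thor[2];Lsp2[B14] and 12.0, 21.1 and 31.1 CPM in Lsp2[B14], changed by -0.26 ± 0.39. Its Thor[2] effect differed between the alleles, by 2.37 ± 0.55 log2 units (adjusted p = 0.025, 7.84% of genes called in the interaction). That call was lost with the replicate block (2.36, adjusted p = 0.0553) and without any 1 of 8 replicates: Lsp2[A10] replicate 1 or 3, Lsp2[B14] replicate 2 or 3, Thor[2];Lsp2[A10] replicate 1, or any Thor[2];Lsp2[B14] replicate (1.99 to 2.75, adjusted p up to 0.0842). Lsp2 had a larger interaction in monosomes, 5.36 ± 1.5, that edgeR did not call (adjusted p = 0.0601). It was called by DESeq2 (adjusted p = 0.0024), with library totals (0.0452), and without Lsp2[B14] replicate 2 (5.81, 0.0481) or replicate 3 (3.13, 0.0357). The interaction was not called by edgeR for the other 4 genes in monosomes, nor for any of the 6 in total RNA (4.1% of genes called) or polysomes (0.825% called), where 1 and 0 of the 6 had an unadjusted p below 0.05 and DESeq2 called 0.

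Genes of larval and male tissues were read beside the monosome result. With A10 the summed larval cuticle markers did not overlap between the lines, while the glue and male sums did. In that fit 27.3% of all genes tested were called higher. Larval cuticle markers summed to 7.09 to 18.2 CPM in monosomes of Thor[2];Lsp2[A10] and to 1.48 to 2.72 CPM in those of Lsp2[A10], with 3 of 3 tested called higher. Larval salivary gland glue genes summed to 4.65 to 22.0 CPM in Thor[2];Lsp2[A10] and to 0.902 to 4.66 CPM in Lsp2[A10], with 3 of 6 tested called higher. Male accessory gland and testis markers summed to 2.06 to 23.9 CPM in Thor[2];Lsp2[A10] and to 0.454 to 2.31 CPM in Lsp2[A10], with 1 of 1 tested called higher. At most 2 of the 8 cuticle genes were at 0 in a library of Thor[2];Lsp2[A10]. With B14 the cuticle markers summed to 4.23 to 7.07 CPM in Thor[2];Lsp2[B14] and to 0.985 to 1.56 CPM in Lsp2[B14]. Their part in the changes of the 6 genes was not tested.

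In polysomes Fbp1 was called higher with Thor[2] in both alleles, by 2.95 ± 0.66 with A10 and 3.10 ± 0.67 with B14 (edgeR adjusted p = 0.0028 and 0.0026), where 34.4% and 32.5% of genes tested were called. It stood at 1.56, 4.08 and 3.92 CPM in Thor[2];Lsp2[A10], against 1.91, 0.448 and 0.149 CPM in Lsp2[A10], the highest of which is the shallow library with 6 counts. It stood at 1.99, 2.41 and 3.87 CPM in Thor[2];Lsp2[B14], against 0.452, 0.393 and 0 CPM in Lsp2[B14] (8, 6 and 0 counts), without overlap. Lsp1alpha was called with B14 only (2.58 ± 0.70, adjusted p = 0.011), and the interaction (-1.09 ± 1.07) was not called. Without the shallow Lsp2[A10] library, Lsp1alpha, Lsp1beta and Lsp1gamma were called higher with A10 too (2.63, 2.16 and 2.70, adjusted p = 0.0036, 5.1e-05 and 0.0002). Translational efficiency was called higher for Fbp1 with A10 (adjusted p = 0.0015, 41% of genes called), but with 3 counts over the total RNA libraries of Thor[2];Lsp2[A10] no size is given. Without the shallow library, Lsp1gamma and Fbp2 were called with A10 too (4.18 and 3.86, adjusted p = 0.0011 and 0.0295), and so was Lsp1alpha, which had 2 counts in total RNA of Thor[2];Lsp2[A10]. With B14 it was called higher for Fbp1, Lsp1beta, Lsp1gamma and Fbp2 (4.56 ± 1.10, 2.26 ± 0.82, 3.42 ± 1.22 and 4.65 ± 1.73, with 43.6% called). The size for Fbp2 is uncertain, since its total RNA level in Thor[2];Lsp2[B14] lay near the floor. With the replicate block Lsp1gamma was called with A10 (2.98 ± 0.87, adjusted p = 0.013) and Fbp2 was not with B14 (3.90 ± 1.96, adjusted p = 0.14). The Lsp1beta call with B14 was lost without any 1 of the 6 replicates, the Lsp1gamma call without Lsp2[B14] replicate 2 or 3 or any Thor[2];Lsp2[B14] replicate, and the Fbp2 call without any Lsp2[B14] replicate or Thor[2];Lsp2[B14] replicate 2 or 3. Without the expression filter the Lsp1beta and Fbp2 calls were lost too (adjusted p up to 0.112, 0.126 and 0.203 for Lsp1beta, Lsp1gamma and Fbp2 over all alternatives, log2 changes 1.99 to 2.39, 2.61 to 3.60 and 3.02 to 6.22).

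Polysomes over monosomes gave no call with Thor[2] in A10 (-2.93 to -0.85, 0.267% of genes called) or B14 (-0.07 to 1.33, 0.439% called), with 1 and 0 of the 6 genes at an unadjusted p below 0.05 and none called by DESeq2. Within Thor[2];Lsp2[A10], polysomes held less Lsp1alpha than monosomes, at -1.54 ± 0.71 (adjusted p = 0.0917), which was called with the replicate block and with library totals as scaling. In that line 32% of genes tested were called.

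Of the 14 ecdysone and juvenile hormone regulators, 12 were called lower in total RNA with Thor[2] in A10 and 13 in B14 (medians -0.84 and -1.10, against 0.04 and 0.03 over all genes), in fits where 32.3% and 34% of genes were called lower. EcR fell by 1.29 ± 0.15 in A10 (edgeR adjusted p = 5.9e-06), and Kr-h1, a juvenile hormone response gene, by 2.42 ± 0.42 in B14 (adjusted p = 0.00022). Adh, the relative of Fbp2, fell by 3.40 ± 0.24 in A10 and 2.00 ± 0.21 in B14 (adjusted p = 2.8e-07 and 3e-06).

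Between the alleles at 15 d no gene of the 6 was called by edgeR in any readout. For translational efficiency and polysome over monosome that holds for every gene tested. At an unadjusted p below 0.05 there were 2 in total RNA, 2 in monosomes, 1 in polysomes and 1 for translational efficiency, and DESeq2 called 1 in monosomes (Lsp2) and gave no adjusted p for translational efficiency. Lsp2[A10] over Lsp2[B14] gave log2 changes in total RNA of -4.0 ± 1.40 for Lsp2 (edgeR adjusted p = 0.27), -1.12 ± 0.45 for Lsp1beta and -0.23 ± 0.58 for Lsp1gamma, where 2.21% of genes tested were called. In monosomes (0.8% of genes called) Lsp2 changed by -4.11 ± 1.14 and in polysomes (1.89% called) by -3.29 ± 1.33 (adjusted p = 0.152 and 0.385). Lsp2 stood at 0.780, 0.551 and 2.45 CPM in Lsp2[A10] and at 2.34, 4.63 and 52.1 CPM in Lsp2[B14], which overlapped. Without Lsp2[B14] replicate 3 the Lsp2 changes were -1.49 in total RNA, -1.93 in monosomes and -1.15 in polysomes, and Lsp1gamma changed by 0.71 in total RNA. With Thor[2], A10 over B14 gave calls in monosomes for Lsp1beta (1.48 ± 0.39) and Fbp1 (1.78 ± 0.46, adjusted p = 0.0298 and 0.0233), where 12.5% of genes tested were called, and none in total RNA (4.16% called), polysomes (3.95% called), translational efficiency (0.0904% called) or polysome over monosome (0.25% called), with 1, 0, 1 and 1 of the 6 at an unadjusted p below 0.05 and 1 called by DESeq2, in total RNA. Both calls were lost without Thor[2];Lsp2[A10] replicate 1 or any Thor[2];Lsp2[B14] replicate (1.18 to 1.80 and 1.46 to 2.08, adjusted p up to 0.142 and 0.085).

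The genes were also set against each other and against all other genes, as a description. Over the 18 libraries of the allele lines in polysomes, Lsp1alpha and Lsp1gamma had a Pearson r of 0.979, Lsp1beta and Lsp1gamma 0.957, and Lsp1alpha and Lsp1beta 0.921. In total RNA the same pairs had 0.889, 0.349 and 0.234, so Lsp1beta parted from the other subunits there. These values share library depth, age and line. Over all 24 total RNA libraries and 9649 genes, the gene most like Lsp1beta was lectin-24A (r = 0.940), with Rheb among its 3 nearest (0.904). For Lsp1alpha it was CHKov1 (0.874), for Lsp1gamma SERCA, the calcium pump gene (0.946), for Lsp2 Hsp70Ba, a heat shock protein gene (0.912), for Fbp1 CG4835 (0.748) and for Fbp2 Eip74EF, an ecdysone-induced transcription factor gene (0.830). The libraries come from 3 tables, which enter these correlations. Rheb is the gene driven in Lpp[TS]>Rheb, where Lsp1beta was highest too, so the value for this pair in part restates that line's contrast.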

How the data were processed

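Poly(A) RNA-seq of total RNA, monosomes and polysomes gave 72 libraries in 3 tables. The authors deposited raw read counts per gene, with no normalization. Per the submitters' processing notes the tools were fastp 0.23.2, Bowtie2 2.3.4.1, STAR 2.2.1, featureCounts 1.6.0 and R 4.2.0, on BDGP6. Strand and multi-mapping settings of the counting are not given in the sources used here. Feature IDs matched a symbol for all but 566 of 23932 features in the Lpp[TS] table and all but 10 of 13925 in each allele table, and no column was without a sample.

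Counts were tested in R 4.3.3 with edgeR 4.0.16 (limma 3.58.1; TMM scaling, filterByExpr, robust quasi-likelihood tests, prior count 0.125, Benjamini-Hochberg adjustment over all genes tested, threshold 0.05). Each table and fraction had its own fit over all its groups. Translational efficiency and polysome over monosome came from fits over both kinds of library, with an interaction term for differences between groups. Ages were fitted together from their separate tables. DESeq2 1.42.0, library totals, RLE scaling, no filter, fits on the compared groups alone, a replicate block and leaving out each replicate were the alternatives, and levels were also computed with TMM scaling. The fits were tested on simulated data with known changes. Polysome libraries held 3.13 to 31.3 M counts, monosome libraries 5.07 to 21.3 M and total RNA libraries 15.3 to 39.7 M, and a floor of 3 counts per library was used for ratios against 0.

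Samples were grouped by the labels' genotype, age and fraction. The labels do not say that replicates came from separate cultures, so p-values measure the spread between these samples, which may be technical. Across the 63 replicate pairs, chi-square per degree of freedom over genes was 5.03 to 100.3, so no library looked like a second deposit of another. Same-numbered libraries of different lines deviated together (correlation over 0.1) in 4 of 18, 12 of 54 and 6 of 9 pairs in the Lpp[TS], 15 d and young tables, and those of different fractions of 1 line in 14 of 18, 19 of 36 and 12 of 18. Since not every pair passed, the numbers were not taken to pair lines, although the young pairs had a median of 0.368, while fractions of 1 replicate come from the same powder by the labels' protocols, so blocked values stand beside fraction ratios where a call changes.

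All 6 genes were described in every comparison. For each, the 3 other genes with the highest Pearson r of log2(CPM + 0.5) over the 24 total RNA libraries (mean of at least 1 CPM) were found, and further gene lists were counted by direction. The genes and the lists were chosen with earlier results of these data known.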

Additional observations from a re-analysis of the deposited data

Results flagged for a closer look

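The Thor[2] effect on Lsp1beta in monosomes differed between the Lsp2 alleles. It was 2.11 ± 0.39 log2 units within Lsp2[A10] and -0.26 ± 0.39 within Lsp2[B14], a difference of 2.37 ± 0.55 by edgeR's interaction term (adjusted p = 0.0253). The 3 libraries of Thor[2];Lsp2[A10] held 78.0, 29.7 and 39.9 CPM, against 9.92, 16.1 and 8.12 CPM in Lsp2[A10]. Those of Thor[2];Lsp2[B14] held 17.9, 11.3 and 17.1 CPM, against 12.0, 21.1 and 31.1 CPM in Lsp2[B14]. The call did not outlast the replicate block (2.36, adjusted p = 0.0553).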

How the results depend on the processing

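Of 114 called changes of the 6 genes, 67 were called in every alternative, and none changed sign. Of 297 changes that were not called, 130 changed sign in at least 1 alternative. The values below count how many of the 6 genes were called, and the cause of each change was not tested.

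With the replicate number as a block, Lpp[TS]>Rheb over Lpp[TS]>Lsp2 had 0 lower in total RNA and 0 higher in polysomes, and Lpp[TS]>Lsp2 over Lpp[TS]>w1118 had 0 higher in polysomes. The block gave 1 lower polysome over total RNA ratio within each of the 3 Lpp[TS] lines, and polysome over monosome calls of 1 higher in Lpp[TS]>Lsp2, 3 higher in Lpp[TS]>Rheb, 1 lower in Lpp[TS]>w1118 and 1 lower in Thor[2];Lsp2[A10]. Blocked, Thor[2];Lsp2[A10] over Thor[2];Lsp2[B14] had 1 higher in monosomes, the Thor[2] by allele interaction 0 in monosomes, and Thor[2] in A10 2 higher for polysome over total RNA. Young Lsp2[A10] over Lsp2[B14] had 4 lower in total RNA and 3 lower for polysome over total RNA, and age in Lsp2[B14] 2 lower for polysome over monosome.

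DESeq2 called 1 lower in polysomes of Lpp[TS]>Rheb over Lpp[TS]>Lsp2, 1 lower for polysome over total RNA in Lpp[TS]>Lsp2, 1 lower in total RNA of Thor[2];Lsp2[A10] over Thor[2];Lsp2[B14] and 4 higher in its monosomes, 4 lower in total RNA with Thor[2] in A10, 1 lower in monosomes of Lsp2[A10] over Lsp2[B14] at 15 d, and 2 in the monosome Thor[2] by allele interaction. It called 1 higher polysome over total RNA ratio in Lsp2[A10] at 15 d, 4 lower in young total RNA, 5 lower in young polysome over total RNA, 1 higher in the monosome age by allele interaction and 1 lower in polysome over total RNA with age in Lsp2[A10].

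Without the expression filter, Lpp[TS]>Lsp2 over Lpp[TS]>w1118 had 0 higher in monosomes and Thor[2] in B14 2 higher for polysome over total RNA. Fits on the compared groups alone gave 0 higher in monosomes of Lpp[TS]>Lsp2 over Lpp[TS]>w1118, 1 lower ratio to total RNA and 1 lower to monosomes in Lpp[TS]>w1118, 4 higher in polysomes with Thor[2] in B14, 1 lower polysome over total RNA with age in Lsp2[A10] and 2 lower polysome over monosome with age in Lsp2[B14]. Library totals gave 2 in the monosome Thor[2] by allele interaction, 2 lower polysome over monosome in Thor[2];Lsp2[A10] and 1 lower polysome over total RNA with age in Lsp2[A10], and RLE scaling also 1 lower there.

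Leaving out each replicate in turn gave these ranges. Lpp[TS]>Rheb over Lpp[TS]>w1118 had 1 to 2 higher in total RNA, 1 to 2 in monosomes and 0 to 3 in polysomes. Lpp[TS]>Rheb over Lpp[TS]>Lsp2 had 1 to 2 higher and 0 to 1 lower in each of total RNA, monosomes and polysomes. Lpp[TS]>Lsp2 over Lpp[TS]>w1118 had 0 to 1 higher in monosomes and 0 to 1 in polysomes, and Lpp[TS]>Lsp2 alone 0 to 1 lower for polysome over total RNA. Thor[2];Lsp2[A10] over Thor[2];Lsp2[B14] had 0 to 1 lower in total RNA and 0 to 2 higher in monosomes. Thor[2] in A10 had 0 to 3 lower in total RNA, and 3 to 6 higher in monosomes, 1 to 4 in polysomes and 1 to 4 for polysome over total RNA. Thor[2] in B14 had 1 to 5 lower in total RNA, 1 to 3 higher in monosomes and 1 to 2 higher for polysome over total RNA, and the monosome interaction 0 to 1. Polysome over total RNA was called for 3 to 5 genes in Thor[2];Lsp2[A10], 1 to 4 in Thor[2];Lsp2[B14] and 0 to 3 in Lsp2[A10] at 15 d, where without replicate 1 all 6 ratios turned negative (-0.88 to -0.23) and Fbp2 ran from -0.23 (a reversal) to 4.52. Young Lsp2[A10] over Lsp2[B14] had 0 to 3 lower in total RNA and 0 to 3 for polysome over total RNA, and 3 to 4 polysome over monosome calls within young Lsp2[A10]. The monosome age by allele interaction had 0 to 1, and age in Lsp2[A10] 2 to 5 lower in polysomes, 0 to 4 for polysome over total RNA and 0 to 1 for polysome over monosome, with 0 to 1 in Lsp2[B14]. Lsp1alpha's age change in polysome over total RNA in Lsp2[A10] ran from -3.53 to 0.65 (without replicate 3 of 15 d, a reversal). Fbp1 and Fbp2 held 1 to 6 counts a library in total RNA of Lpp[TS]>Rheb and Lpp[TS]>w1118, so a small difference there was not detectable at this depth. A rise such as that of Lsp1alpha, to 74.8 CPM on average in Lpp[TS]>Rheb, was absent.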
